A study of Mus musculus with 6 samples.

Results

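The enzymes that hydroxylate, glycosylate and cross-link collagen were followed in white fat from the epididymal pads of males 10 weeks old. The transgenic group carried aP2-nSREBP1c, which drives the nuclear form of the lipid-synthesis factor SREBP-1c from a promoter active in fat cells (aP2, the gene Fabp4), and the labels call these mice lipodystrophic. Their controls were litter-matched wild type mice of the same mixed C57BL6;SJL background. Each group had 3 mice, and the RNA of each mouse was read on 1 Affymetrix MOE430v2.0 array. The labels give the strain of the transgenic mice in 3 spellings, which were taken as the same line. The genes were chosen by function: 3 lysyl hydroxylases (Plod1, Plod2, Plod3), 3 catalytic subunits of prolyl 4-hydroxylase (P4ha1, P4ha2, P4ha3) and 4 lysyl oxidases (Lox, Loxl1, Loxl2, Loxl3). Of these 10 genes, 9 had at least 1 probe set that the platform annotation assigns to a single gene, out of 18194 such genes on the array. They had 15 probe sets. The 2 probe sets that list Loxl2 also list another gene, so Loxl2 was not analysed here.

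New collagen chains are modified in the endoplasmic reticulum before they fold and again outside the cell before they become insoluble. Prolyl 4-hydroxylase makes the hydroxyproline that keeps the collagen helix stable at body temperature. Lysyl hydroxylases make hydroxylysine, which carries sugars and determines which kind of cross-link can form. Lysyl oxidases are secreted copper enzymes that convert lysine and hydroxylysine side chains into reactive aldehydes, from which the cross-links between collagen molecules, and between elastin molecules, arise. In fat tissue the resulting network surrounds each fat cell.

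The values are MAS5 signals, a linear brightness in which 1 probe set cannot be set against another, and with 3 arrays per group the number of arrays limits the precision. Group differences are given as log2 fold changes of signal + 16, with the adjusted p of a limma fit over all 27023 tested probe sets and a threshold of 0.05. The array of transgenic replicate 2 stood apart. On it the 3′ signal of the beta-actin control was 122-fold its 5′ signal, where the remaining arrays had 1.11-fold to 1.81-fold, and the median signal was 37.7, where they had 53.4 to 65.4. The tested probe sets and the gene lists are therefore also given for the other 5 arrays (called the 5-array comparison), and the part of RNA quality in the results was not tested otherwise.

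The tissue label was checked against markers of fat cells, and 12 of 15 listed markers were tested, none of them with a signal under 16. Their summed signal was 44760 to 66641 in transgenic and 91154 to 100706 in wild type fat, and 2 fell and 0 rose (limma; 8 were lower and 0 higher at an unadjusted p under 0.05). In the 5-array comparison 8 of the 12 fell. These and the following marker counts can be compared with those of all 13112 tested genes. At an unadjusted p under 0.05 (limma, 6 arrays), 1238 of all genes were higher and 1174 lower. By adjusted p, 2.23% of all genes rose and 1.54% fell over 6 arrays. Over 5 arrays 8.04% rose and 7.33% fell. The summed signals of 8 mesothelial markers were 1564 to 2442 in transgenic and 6103 to 6758 in wild type fat (2 fell, 7 were lower at an unadjusted p under 0.05, and 7 fell over 5 arrays). Those of 8 endothelial markers were 2112 to 6509.5 in transgenic and 8361 to 9284 in wild type fat (0 passed, 2 were lower at an unadjusted p under 0.05, and 5 fell over 5 arrays). Those of 8 smooth muscle markers were 7441 to 8813 in transgenic and 11294 to 13836 in wild type fat. Of these 1 fell, where 0 were higher and 2 lower at an unadjusted p under 0.05. Over 5 arrays 3 fell and 1 rose. Macrophage markers had higher sums, of 32377 to 44417 in transgenic and 20682.5 to 25045 in wild type fat over 12 genes. Of these 1 rose over 6 arrays, where 6 were higher at an unadjusted p under 0.05, and 6 rose over 5 arrays. The sums of 11 fibroblast and progenitor markers overlapped, at 19348 to 23520 in transgenic and 21624 to 24946 in wild type fat. Of these 1 fell, where 2 were higher and 2 lower at an unadjusted p under 0.05. Over 5 arrays 2 fell and 1 rose. Each sum is weighted toward its brightest probe sets, so the sums describe a list only roughly. The lowest transgenic sums of fat cell, endothelial and mesothelial markers were those of transgenic replicate 2, the array that stood apart. Of all these markers, Pi16, Cnn1, Itgam and Pecam1 had a signal under 16 on at least 1 array, and none had a signal of 0. The part of these cell types in the values below was not tested, and in whole tissue fewer cells of a type and less RNA per cell cannot be told apart.

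Among the 8 enzymes tested Plod2 was the gene that rose in transgenic fat, 5.89-fold, and no other passed the test in either direction over 6 arrays. Plod2 encodes lysyl hydroxylase 2, which acts on the ends of the collagen chains and favours hydroxylysine-derived cross-links. Its probe set 1416686_at had signals of 1785, 2401 and 2451 in transgenic replicates 1, 2 and 3, against 394, 333 and 352 in wild type replicates 1, 2 and 3. The lowest transgenic array was far above the highest wild type array, and the array of transgenic replicate 2 lay with the other transgenic arrays. The means were 2212 ± 371 in transgenic and 359 ± 31 in wild type fat (SD, n = 3 each). The log2 fold change was 2.56 ± 0.23 SE (limma, adjusted p = 0.0036). It was 2.49 ± 0.20 SE in the 5-array comparison (adjusted p = 6.21e-05). With any 1 array left out the adjusted p was at most 0.0441, which was reached without wild type replicate 2.

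The second probe set of Plod2, 1416687_at, had signals of 1353, 170.5 and 1325 in transgenic replicates 1, 2 and 3, against 179.8, 173.7 and 164.0 in wild type fat. Transgenic replicates 1 and 3 were high by this measure too, but transgenic replicate 2 lay among the wild type arrays. The log2 fold change was 1.89 ± 0.76 SE (adjusted p = 0.284) over 6 arrays. It was 2.85 ± 0.18 SE, or 7.19-fold, in the 5-array comparison (adjusted p = 1.4e-05).

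Plod1 encodes lysyl hydroxylase 1, which acts on the helical part of collagen. Its brighter probe set, 1416289_at, had signals of 720.8, 50.9 and 947.7 in transgenic replicates 1, 2 and 3, against 1008, 853.4 and 827.7 in wild type fat. The groups overlapped. Transgenic replicate 2 was far below the other arrays, and transgenic replicate 1 was also below all wild type arrays. Plod1 did not pass the test over 6 arrays (−1.33 ± 0.96 SE, adjusted p = 0.532) or over 5 (−0.11 ± 0.19 SE, adjusted p = 0.773). Its dimmer probe set, 1445893_at, ran from 35.4 to 81.0 in transgenic and from 54.2 to 82.6 in wild type fat (−0.30 ± 0.31 SE, adjusted p = 0.658, and −0.14 ± 0.31 SE, adjusted p = 0.831, over 5 arrays).

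Plod3 encodes lysyl hydroxylase 3, which also transfers sugars to hydroxylysine. Its signals were 887.6, 176.3 and 943.7 in transgenic replicates 1, 2 and 3, against 1589, 1417 and 1434 in wild type fat. All transgenic arrays were below all wild type arrays, and transgenic replicate 2 was the lowest by a wide margin. The log2 fold change over 6 arrays was −1.44 ± 0.61 SE (adjusted p = 0.309), which did not pass. In the 5-array comparison, where the transgenic spread was narrower, Plod3 fell (−0.68 ± 0.16 SE, adjusted p = 0.0215), a 1.60-fold lower signal.

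**Figure D1:**
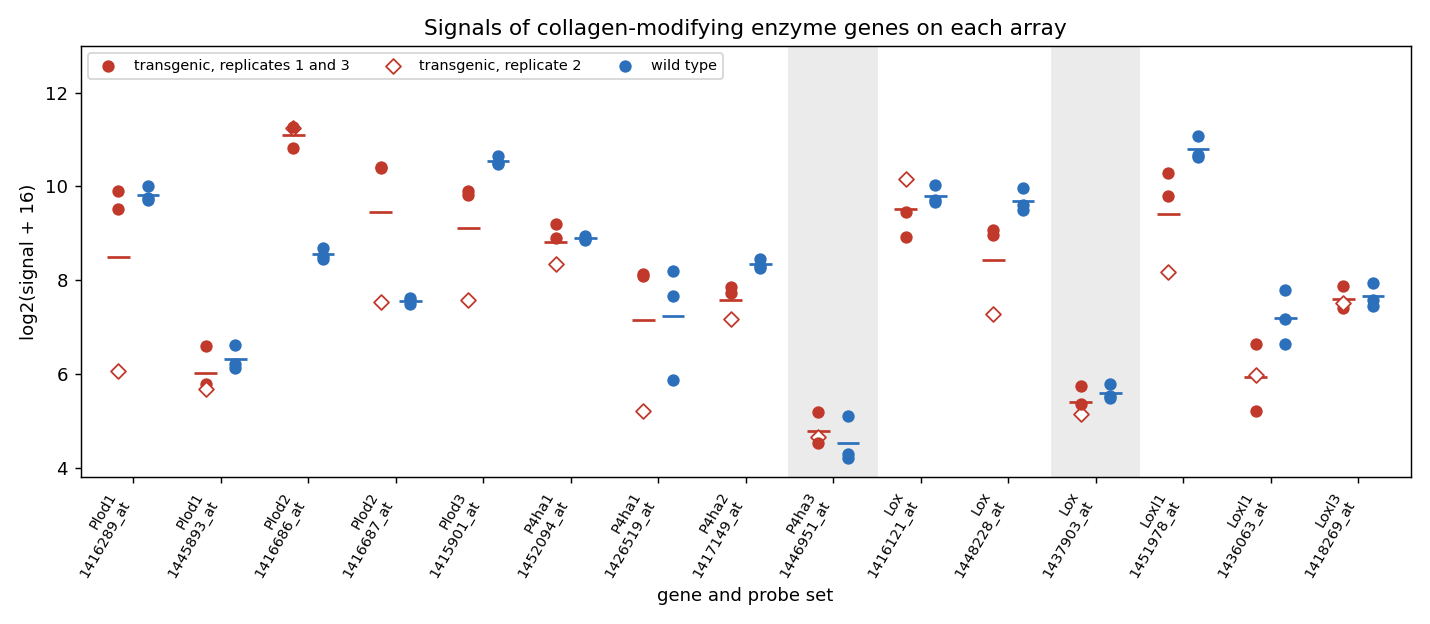
Signals of the 15 probe sets on each array, as log2(signal + 16), with transgenic arrays in red on the left and wild type arrays in blue on the right of each probe set. Bars are group means, the open diamond is transgenic replicate 2, and the grey bands mark the 2 probe sets too dim to be tested. The Plod2 probe set 1416686_at has all 3 transgenic arrays above the wild type arrays. All 3 lie below in Plod3, P4ha2, both Loxl1 probe sets and the Lox probe set 1448228_at.

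The prolyl 4-hydroxylase subunits gave no call. P4ha1 encodes the widespread form of the catalytic subunit. Its brighter probe set, 1452094_at, had signals of 459.9, 309.3 and 572.3 in transgenic replicates 1, 2 and 3, against 456.1, 476.8 and 450.4 in wild type fat. The wild type values fall inside the transgenic range. The log2 fold change was −0.08 ± 0.29 SE (adjusted p = 0.9). The sign turned in the 5-array comparison (0.15 ± 0.18 SE, adjusted p = 0.669) and after quantile normalization of all arrays (0.044). The second probe set of P4ha1, 1426519_at, varied as widely within wild type fat (42.1 to 279.3) as within transgenic fat (21.2 to 266.5), so it could not resolve a difference (−0.09 ± 0.94 SE, adjusted p = 0.97, and 0.87 ± 0.55 SE, adjusted p = 0.37, over 5 arrays).

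P4ha2, the gene of another catalytic subunit, had signals of 194.6, 128.9 and 217.0 in transgenic replicates 1, 2 and 3, against 332.4, 292.0 and 301.6 in wild type fat. The groups did not overlap, and every transgenic array was lower. The log2 fold change was −0.75 ± 0.27 SE (adjusted p = 0.226). That of the 5-array comparison was −0.55 ± 0.19 SE (adjusted p = 0.091), and neither passed. The probe set of P4ha3, a further catalytic subunit, was below the filter on dim probe sets. Its signals of 7.1 to 20.2 in transgenic and 2.5 to 18.1 in wild type fat are near background, and no difference was detectable at that brightness.

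Plod3 and P4ha2 were the hydroxylase genes whose signals lay lower on every transgenic array, and the 250 bases before their start sites are shown because several hydroxylase and lysyl oxidase genes are known targets of hypoxia-inducible factor. RefSeq sequences (GRCm38.p6) were found for 5 of the 9 genes, namely Plod1, Plod3, P4ha1, P4ha2 and P4ha3. Capitals mark the core letters of hypoxia response elements, ACGTG and GCGTG, searched on both strands. The Plod3 sequence is at chr5:136986769-136987018 and the P4ha2 sequence at chr11:54100674-54100923, both on the plus strand.
Plod3: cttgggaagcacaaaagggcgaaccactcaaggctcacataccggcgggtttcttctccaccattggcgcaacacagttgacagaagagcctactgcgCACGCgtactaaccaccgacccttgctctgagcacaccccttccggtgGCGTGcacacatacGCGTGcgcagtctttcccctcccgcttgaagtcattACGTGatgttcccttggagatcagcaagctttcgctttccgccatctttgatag
P4ha2: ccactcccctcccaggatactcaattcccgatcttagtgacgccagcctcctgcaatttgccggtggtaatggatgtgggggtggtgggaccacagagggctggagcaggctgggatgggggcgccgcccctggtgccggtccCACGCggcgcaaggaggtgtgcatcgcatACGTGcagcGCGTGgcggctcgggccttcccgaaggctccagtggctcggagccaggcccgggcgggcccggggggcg
The Plod3 stretch held 1 match of ACGTG and 3 of GCGTG, and the P4ha2 stretch 1 and 2. The P4ha1 stretch also held 1 and 2, that of Plod1 held 0 and 1, and that of P4ha3 held 0 of either. Among all 32851 start sites in the table, 16.6% had ACGTG and 28.2% had GCGTG in the same window. The GC content of the 5 stretches was 55.6% to 70.0%, and the shares of all start sites were not matched for it. A sterol response element of the form TCACNCCAC, the kind that SREBP proteins can bind, was in 1.05% of all windows and in 0 of these 5. These matches describe the letters only.

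Of the lysyl oxidases, both Loxl1 probe sets and the Lox probe set 1448228_at were lower on every transgenic array, without passing the test over 6 arrays. The brighter Lox probe set, 1416121_at, and Loxl3 showed no difference over 6 arrays that could be told from the spread. Loxl1 is known for its part in the upkeep of elastic fibres. Its probe set 1451978_at had signals of 873.0, 273.9 and 1238 in transgenic replicates 1, 2 and 3, against 2146, 1621 and 1558 in wild type fat. Every transgenic array was below every wild type array. The log2 fold change was −1.37 ± 0.53 SE (adjusted p = 0.272). Loxl1 fell in the 5-array comparison (−0.75 ± 0.21 SE, adjusted p = 0.0481), a 1.68-fold lower signal, but with no filter on dim probe sets the adjusted p of that comparison was 0.103. The dimmer probe set of Loxl1, 1436063_at, had 20.9, 47.2 and 83.3 in transgenic replicates 1, 2 and 3, against 205.0, 128.0 and 84.3 in wild type fat. The groups were separated by a narrow margin, and the log2 fold change was −1.26 ± 0.45 SE (adjusted p = 0.227) over 6 arrays and −1.28 ± 0.44 SE (adjusted p = 0.0954) over 5.

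Lox encodes lysyl oxidase itself. Its probe set 1416121_at had signals of 469.8, 1134 and 681.6 in transgenic replicates 1, 2 and 3, against 1026, 825.8 and 803.9 in wild type fat. Here transgenic replicate 2 was the highest of all 6 arrays, and the other transgenic arrays were below the wild type arrays. The probe set 1448228_at of the same gene had 480.2, 138.4 and 523.3 in transgenic replicates 1, 2 and 3, against 765.1, 708.0 and 986.6 in wild type fat, with transgenic replicate 2 the lowest. The log2 fold changes of these probe sets were −0.29 ± 0.35 SE and −1.26 ± 0.50 SE over 6 arrays (adjusted p = 0.698 and 0.282). Over 5 arrays they came close to each other, at −0.62 ± 0.21 SE and −0.68 ± 0.20 SE (adjusted p = 0.095 and 0.0524), and neither passed. A further probe set, 1437903_at, was too dim to be tested, at 19.1 to 37.3 in transgenic and 28.7 to 38.7 in wild type fat.

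Loxl3, another secreted lysyl oxidase, had signals of 154.8, 166.7 and 218.8 in transgenic replicates 1, 2 and 3, against 229.8, 158.0 and 175.0 in wild type fat. The groups overlapped almost fully (−0.05 ± 0.26 SE, adjusted p = 0.933). The 5-array comparison gave −0.0082 ± 0.24 SE (adjusted p = 0.988), and the sign turned after quantile normalization (0.15).

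**Figure D2:**
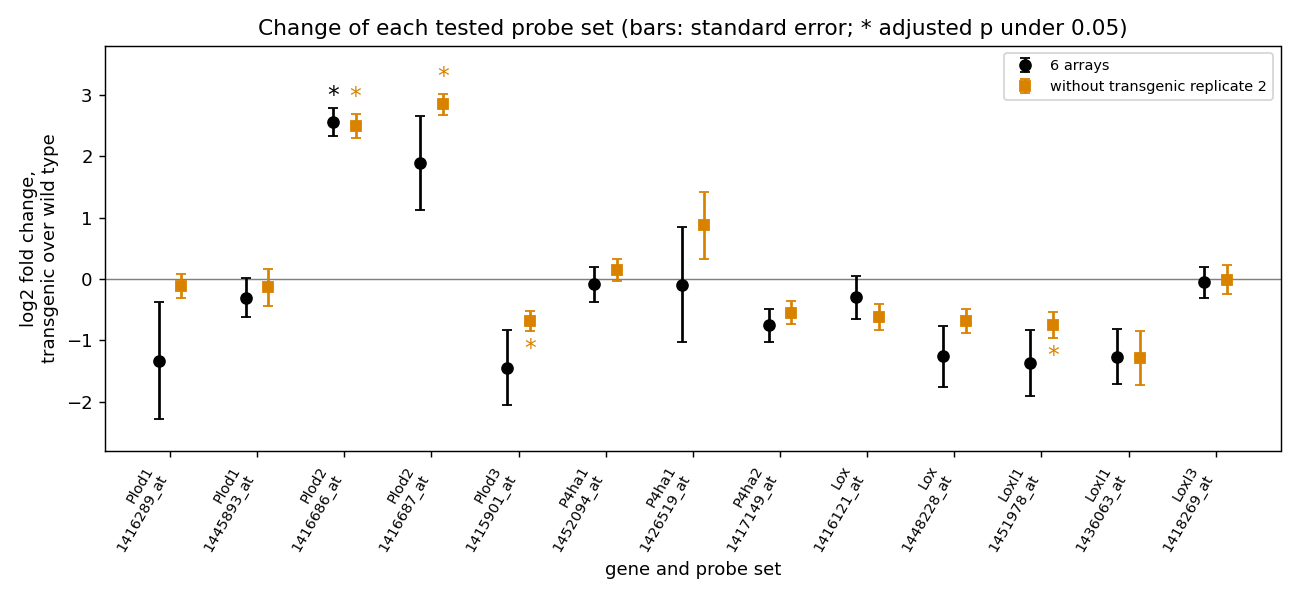
Log2 fold change of transgenic over wild type fat for each of the 13 tested probe sets, over 6 arrays in black and without transgenic replicate 2 in orange. Bars are standard errors and asterisks mark an adjusted p under 0.05. The Plod2 values lie at 2.56 and 1.89 over 6 arrays, and at 2.49 and 2.85 without that array. Those of Plod1, Plod3, P4ha2, Lox, Loxl1 and Loxl3 lie below 0 in each case, and those of P4ha1 change sign.

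By gene, 1 of the 8 tested enzymes rose, where 2.23% of all 13112 tested genes did, and 0 fell, where 1.54% did. At an unadjusted p under 0.05, 2 of the 13 tested probe sets were higher and 4 lower, where 7.76% and 8.66% of all probe sets were. In the 5-array comparison 1 enzyme rose and 2 fell (Plod3 and Loxl1), against 8.04% and 7.33% of all genes. Groups did not overlap for 1 probe set that was higher and 5 that were lower in transgenic fat, and among all tested probe sets these shares were 11.9% and 15.3%. Those 5 probe sets belong to Plod3, P4ha2, Lox and Loxl1. Probe sets of the same gene are not independent. The median log2 fold change of the 8 enzymes was −0.52 over 6 arrays and −0.33 over 5, where all tested genes had −0.04 and 0.02.

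Plod2 was also set against each of the other 7 tested enzymes array by array, as a difference of log2(signal + 16). A scale shared by the array cancels in such a difference only in part, because of the added 16. These pairs were formed because Plod2 was the gene that rose, so the values are a description. The log2 difference of Plod2 minus Plod1 was larger by 3.89 in transgenic than in wild type fat, and that of Plod2 minus Loxl1 by 3.93. The smallest such shift was against Loxl3, at 2.61. In all 7 pairs the transgenic arrays lay above the wild type arrays. With the array of transgenic replicate 2 left out, the shift was largest against Loxl1, at 3.24, and smallest against P4ha1, at 2.34. Against Plod1 it was then 2.60.

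The array of transgenic replicate 2 also stood apart when probe sets of the same gene were set against each other, in all 5 genes with a pair of tested probe sets. For Plod2, probe set 1416686_at exceeded 1416687_at by 3.70 units of log2(signal + 16) there, against 0.39 to 1.07 on the other 5 arrays. For Lox, 1416121_at exceeded 1448228_at by 2.90 units, against −0.29 to 0.42. For Plod1 the brighter probe set exceeded the dimmer by 0.38 units, against 3.14 to 3.79, and for Loxl1 by 2.20 units, against 3.29 to 4.59. The margin was slight for P4ha1, at 3.13 units against 0.66 to 3.02. On this array 8 of the 13 tested probe sets had their lowest signal, and its median signal, 37.7, was also the lowest. How many of all tested probe sets were lowest there was not counted, nor were probe set pairs of other genes compared. Whether these counts are particular to the enzymes therefore cannot be told. The position of each probe set on its transcript was not used here.

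**Figure D3:**
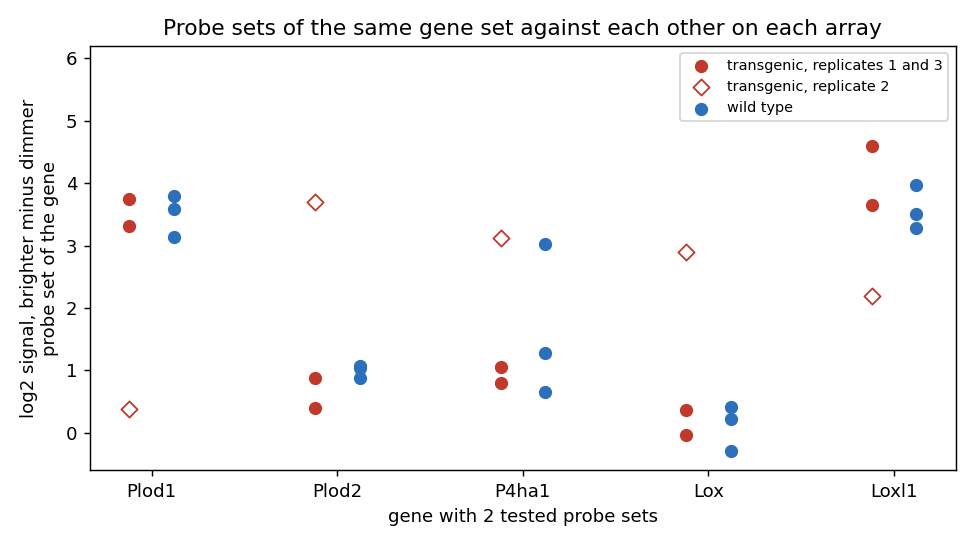
Log2(signal + 16) of the brighter minus the dimmer tested probe set of the same gene on each array, for the 5 genes with a pair of tested probe sets; transgenic arrays are red, wild type arrays blue, and the open diamond is transgenic replicate 2. The diamond lies outside the range of the other 5 arrays for each gene, at 3.70 for Plod2 and 2.90 for Lox.

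The rest of the collagen pathway was read from lists of genes by role. For comparison with the lists below, 2.23% of all 13112 tested genes rose and 1.54% fell over 6 arrays. Over 5 arrays 8.04% rose and 7.33% fell. At an unadjusted p under 0.05 (limma, 6 arrays), 1238 of all genes were higher and 1174 lower. Other genes of collagen synthesis cover the partner subunit of prolyl 4-hydroxylase (P4hb), prolyl 3-hydroxylases, chaperones such as Serpinh1, hydroxylysine galactosyltransferases, the enzymes that cut the propeptides, and Loxl4. Of 19 tested, 1 fell, 0 rose and 18 did not pass (0 higher and 1 lower at an unadjusted p under 0.05, limma). The gene that fell was Pcolce2, which encodes an enhancer of propeptide cleavage. It had signals of 148.4, 45.1 and 176.3 in transgenic replicates 1, 2 and 3, against 829.1, 769.0 and 557.4 in wild type fat, a 5.82-fold lower signal (−2.54 ± 0.47 SE, adjusted p = 0.0396). No transgenic array reached the wild type range. Over 5 arrays the change was −2.03 (adjusted p = 0.00037), but the call was lost when any other array was dropped (adjusted p at most 0.203), and with the replicate number as a block (adjusted p = 0.0743). The median log2 fold change of the list was −0.40 over 6 arrays and −0.045 over 5.

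The collagen genes and the elastic fibre genes gave no call over 6 arrays. Of 16 collagen genes tested, 0 rose and 0 fell (0 higher and 3 lower at an unadjusted p under 0.05, limma), with a median of −0.34, and over 5 arrays 2 fell and the median was −0.31. Of 11 elastic fibre genes, which encode elastin and the proteins around it, 0 rose and 0 fell (0 higher and 5 lower at an unadjusted p under 0.05), with a median of −1.16. In the 5-array comparison 5 of them fell and 1 rose, with a median of −0.75.

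Because Plod2 is also a known target of hypoxia-inducible factor, 18 further hypoxia-induced genes were read beside it. In this list 1 rose, 1 fell and 16 did not pass, with a median of 0.12 (3 higher and 4 lower at an unadjusted p under 0.05, limma). Ero1a, an oxidase that drives disulfide formation in the endoplasmic reticulum, had signals of 1095, 2101 and 1512 in transgenic replicates 1, 2 and 3, against 556.4, 451.8 and 421.7 in wild type fat. It rose 3.13-fold (1.65 ± 0.30 SE, adjusted p = 0.0387), a call lost when transgenic replicate 3 or any wild type array was dropped (at most 0.214), with arrays centred on their median (0.0779) and with the replicate number as a block (0.138). Over 5 arrays the change was 1.41 (adjusted p = 0.00208). Bnip3, a mitochondrial protein gene, had 1676, 2682 and 2765 in transgenic replicates 1, 2 and 3, against 6776, 6032 and 6433 in wild type fat. It fell 2.75-fold (−1.46 ± 0.23 SE, adjusted p = 0.0238), a call lost when the same arrays were dropped (at most 0.146), with median centring (0.0921) and with the block (0.0789). Over 5 arrays the change was −1.57 (adjusted p = 0.000986). The groups overlapped for neither gene. Of the 18 genes, 9 had a log2 fold change below 0 over 6 arrays and 6 over 5 arrays. All tested genes had medians of −0.04 and 0.02. The part of hypoxia in the rise of Plod2 was not tested. In the 5-array comparison 2 rose and 3 fell, with a median of 0.23.

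**Figure D4:**
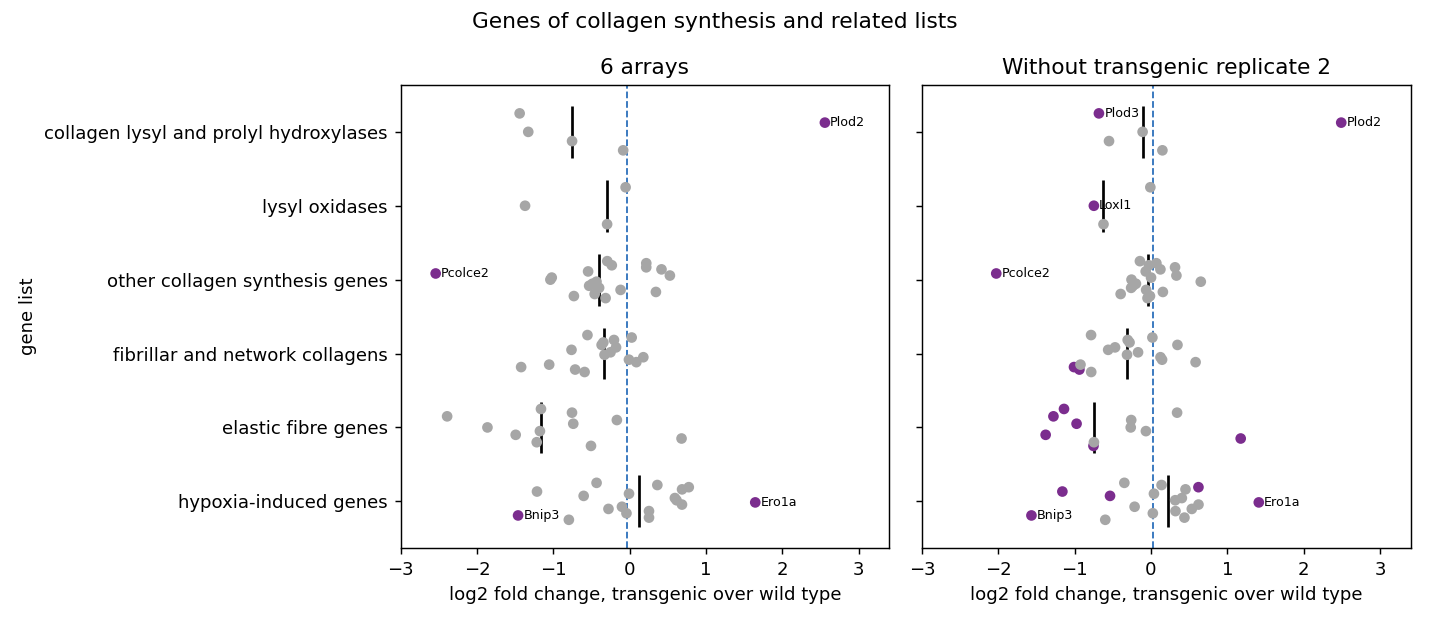
Log2 fold change of transgenic over wild type fat for each tested gene of 6 lists, over 6 arrays on the left and without transgenic replicate 2 on the right. Purple points have an adjusted p under 0.05, black bars are list medians and the dashed line is the median of all tested genes. Among the purple points, names are given for the enzymes and for the genes named in the text. Plod2 stands at 2.56 and 2.49, and Pcolce2 at −2.54 and −2.03.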

How the data were processed

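RNA of 6 epididymal fat pads was measured on 1 array per mouse. The deposited table holds linear intensities, which the authors computed in MAS5 according to the submitters' processing notes. The sources used here give neither its version and scaling target nor detection calls. There are 0 columns of other samples. Of 45101 probe sets, 34958 have 1 gene in the platform annotation, 932 have several and 9211 have none, and genes were named only from the first kind. Matching the enzymes' gene identifiers to RefSeq changed 0 symbols.

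The log2 of signal + 16 was used without further normalization. After 64 control probe sets, the 40% with the lowest mean over all arrays were left out, and 27023 were compared with limma 3.58.1 in R 4.3.3 (lmFit, eBayes with trend, two-sided, 4 residual degrees of freedom). Benjamini-Hochberg adjustment ran over all 27023. Such fold changes understate the change of dim genes. The tested probe set with the highest mean stands for a gene. Tables and figures used Python 3.11.15 (pandas 2.3.3, numpy 2.4.6, matplotlib 3.10.9). The fit was tested on simulated data with independent noise in each probe set. No simulated array was made to stand apart, so that test does not cover an array like transgenic replicate 2.

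The genes, lists and tests were chosen with earlier results of these data known. Every probe set of the enzymes is named, and from each other pathway list up to 4 genes past the threshold with the largest change. Alternatives were offsets of 1 and 64, dropping none or 60% of the dimmest probe sets, quantile normalization or median centring, eBayes without trend, array weights, a replicate block, leaving out each array, transgenic replicate 2 left out with quantile normalization, and the mean over a gene's probe sets.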

Additional observations from a re-analysis of the deposited data

How the results depend on the processing

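Plod2 was the enzyme gene that rose under all 18 alternatives (log2 fold change 2.23 to 2.70, adjusted p at most 0.0441). The second probe set of Plod2 stayed above 0 in the 17 alternatives that held it (1.41 to 2.85) but passed in 4. Those 4 left out transgenic replicate 2 or weighted the arrays, and in the others the adjusted p reached 0.601. The number of enzyme genes that fell was 0 over 6 arrays, 0 to 2 with 1 array left out, 4 without transgenic replicate 2 and with quantile normalization (Plod3, P4ha2, Lox and Loxl1), and 1 without transgenic replicate 2 and with no filter, a combination chosen after the data were seen. P4ha1 turned sign after quantile normalization (0.044), median centring (0.035), array weights (0.16), and without transgenic replicate 2 with quantile normalization (0.14) or no filter (0.15), and ran from −0.28 to 0.15 with 1 array left out. Its second probe set did so under the same settings (0.026, 0.027, 0.68, 0.85 and 0.87) and ran from −0.78 to 0.87. Loxl3 turned sign after quantile normalization (0.15), median centring (0.067) and array weights (0.13), and ran from −0.19 to 0.091. None of these passed the test, and the cause was not tested. Over all 27023 probe sets the median change was −0.094, which quantile normalization moved to 0.023. Over the alternatives the genes that rose numbered 62 to 1418 and those that fell 27 to 1571, against 292 and 202 over 6 arrays. Counts that fell ran from 0 to 2 for other collagen synthesis genes, 0 to 7 for collagens, 0 to 6 for elastic fibre genes and 0 to 4 for hypoxia-induced genes, of which 0 to 3 rose. The 1 call of Pcolce2 was also lost with an offset of 1 (adjusted p = 0.0598), with no filter (0.0533) and with the replicate block, and those of Ero1a and Bnip3 also with median centring.

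Deviations of same-numbered arrays from their group means correlated at −0.37, 0.09 and −0.05, and those of unlike-numbered arrays at −0.27 to 0.45. With 3 arrays per group these values cannot exclude pairing, and whether the numbers stand for litters is not known. The numbers were not taken as pairs in the main test. With the number as a replicate block, 1 enzyme gene rose and 0 fell, as without it, and over all genes 129 rose and 79 fell. The calls of Pcolce2, Ero1a and Bnip3 were lost with it (adjusted p = 0.0743, 0.138 and 0.0789). Arrays of 3 mice per group limit what could be called, and dim probe sets such as that of P4ha3 carry no detection call.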
